A study of Mus musculus with 15 samples.

Results

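The homeobox gene Hoxa9 and its partner genes of the Meis and Pbx families were followed across 5 groups of mouse prostate cancer cells on expression arrays. The members are the 6 genes Hoxa9, Meis1, Meis2, Meis3, Pbx2 and Pbx3, among 19297 genes measured in all. They were chosen by name: a probe set had to carry exactly 1 gene symbol, and where a gene had several probe sets the brightest over the 15 arrays would be kept. Each of the 6 genes had 1 such probe set. The cells are Myc-CaP, which come from the prostate cancer of a Myc-transgenic mouse, so all groups share the transgene. The groups of 3 arrays each carried a control vector (VEC), Twist1 in its wild-type form (WT), Twist1 with the Twist box mutation F191G, or the forms labelled AQA or DQD, which the labels describe no further. Cells had been transfected, selected and grown to confluence before harvest. The labels give neither the promoter nor the number of clones, and they do not say whether replicates A, B and C came from separate cultures, so the p-values reflect array-to-array spread that may be technical only. In such bulk RNA, fewer cells of a type and less RNA per cell cannot be told apart.

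Hox proteins are transcription factors that set position along the body axis and bind DNA through a homeodomain. Pbx and Meis proteins belong to the TALE class of homeodomain proteins, named for an extra loop of amino acids, and bind DNA together with Hox proteins, which raises the selectivity of the complex. Hoxa9 with Meis1 is best known for keeping blood progenitors from differentiating and for its part in leukaemia. Twist1 is a basic helix-loop-helix factor, a class that binds short DNA motifs called E-boxes, and it is known for epithelial-mesenchymal transition. In these data the differences among groups were small: over the 10 pairwise comparisons of 5 groups, Pbx3 was the only member to pass the test, in WT against VEC and in DQD against WT.

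Promoter sequences are shown for the members with an E-box match in the 250 bases before the gene's RefSeq start (GRCm38.p6), because the introduced factor belongs to an E-box binding class. The table held promoters for 5 of the 6 members, Pbx3 excepted. Capitals mark the E-box, spelled CANNTG and the same on both strands. The Hoxa9 sequence is chr6:52227371-52227620 on the minus strand, with its match starting at position -246 from the gene start. The Meis1 sequence is chr11:19018970-19019219 on the minus strand, with its match at -181. The Pbx2 sequence is chr17:34592009-34592258 on the plus strand, with its match at -210.
Hoxa9: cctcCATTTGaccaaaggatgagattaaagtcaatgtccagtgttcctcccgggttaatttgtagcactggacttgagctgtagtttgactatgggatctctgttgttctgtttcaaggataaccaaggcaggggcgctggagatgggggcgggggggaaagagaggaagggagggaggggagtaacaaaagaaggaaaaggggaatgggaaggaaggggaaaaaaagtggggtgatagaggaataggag
Meis1: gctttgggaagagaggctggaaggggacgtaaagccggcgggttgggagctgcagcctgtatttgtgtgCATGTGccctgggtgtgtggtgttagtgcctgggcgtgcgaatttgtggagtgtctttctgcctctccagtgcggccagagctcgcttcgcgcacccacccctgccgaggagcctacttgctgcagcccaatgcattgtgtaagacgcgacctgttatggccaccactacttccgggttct
Pbx2: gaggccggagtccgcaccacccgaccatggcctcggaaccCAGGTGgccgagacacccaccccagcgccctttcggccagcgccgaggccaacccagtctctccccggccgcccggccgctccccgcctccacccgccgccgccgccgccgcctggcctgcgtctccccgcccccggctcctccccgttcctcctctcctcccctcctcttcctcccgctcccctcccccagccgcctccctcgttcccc
An E-box stood in 66.2% of all 32851 promoter windows of this length, so a match in 3 of 5 members is ordinary. The joint Hox and Pbx motif TGATNNAT (either strand) occurred in 7.68% of windows and the Meis motif TGACAG (either strand) in 15.9%, and neither was found in the 5 windows. The promoters differed in base composition, with a GC content of 49.6% for Hoxa9, 59.6% for Meis1 and 77.6% for Pbx2. A match is a description of letters and not a measured binding site.

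All levels below are on the deposited log2 scale with n = 3 arrays per group, and a difference of 1 is a doubling. Levels of different probe sets are not compared with each other. Correlations between arrays over all genes ran from 0.969 to 0.998, and from 0.99 without WT replicate A, the array that stood apart. Values that rest on WT are also given without it where a call ended or the value moved by over 1.5 times. The introduced gene's own probe set, Twist1, read 6.43 ± 0.29 (SD) in VEC and 6.79 ± 0.06 in WT, a difference of 0.36 (SE 0.147, limma adjusted p = 0.129), so it does not check the labels. The cell line's labelled origin was set against 9 measured prostate epithelial markers. Of these 3 lay above the median gene, namely Foxa1 (mean 11.20), Krt8 (7.97) and Hoxb13 (7.50). The other 6 lay below it: Krt5 (5.77), Krt18 (5.73), Krt14 (5.73), Cdh1 (5.60), Epcam (5.01) and the androgen-driven prostate gene Pbsn (2.14). Of 12 listed blood cell markers 9 were measured and 1 lay above the median gene, with the defining marker Ptprc at 4.56. The mean of those 9 ran from 5.198 to 5.281 on WT arrays, above the VEC arrays (5.137 to 5.188) and the DQD arrays (4.99 to 5.062). The other marker lists also lay higher on WT than on DQD arrays: 6.028 to 6.031 against 5.977 to 5.996 for 6 neural markers, 5.548 to 5.633 against 5.417 to 5.501 for 9 fibroblast and endothelial markers, and 6.344 to 6.362 against 6.181 to 6.25 for the prostate markers. On VEC arrays the neural list (5.87 to 5.99) lay below WT, while the fibroblast and endothelial list (5.521 to 5.571) and the prostate list (6.264 to 6.537) overlapped with it. The part of these shifts in the results on WT was not tested. The deposited values also held no difference between the labelled array batches once group was taken into account: the fitted batch term was at most 5.0e-09 in size for each probe set. Values of single arrays are therefore not independent of the batch labels. A shift equal for all arrays of a batch would cancel in differences within that batch, but no source used here describes this step.

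**Figure D1:**
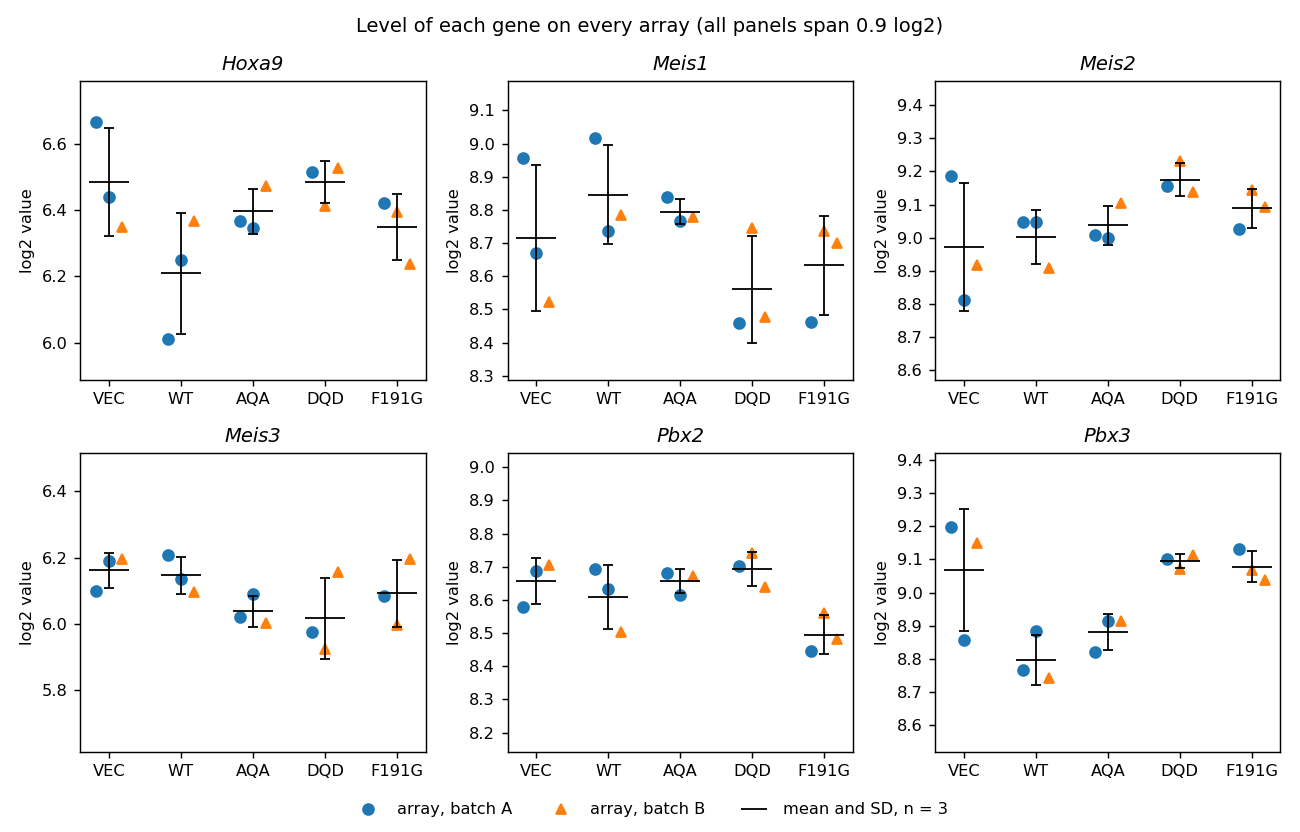
Log2 value of each of the 6 genes on all 15 arrays, by group, with circles for batch A, triangles for batch B, and a bar with whiskers for the mean and SD of 3 arrays; every panel spans the same 0.9 log2 units. Pbx3 is the panel in which the 3 WT arrays, at 8.74 to 8.88, lie below all DQD and F191G arrays, and WT replicate A gives the lowest Hoxa9 value, 6.01.

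Hoxa9, the posterior Hox gene that leads the set, was measured on VEC arrays at 6.67, 6.44 and 6.35 (replicates A, B and C) and on WT arrays at 6.01, 6.25 and 6.37. The highest array of all 15 was VEC replicate A and the lowest was WT replicate A, while WT replicate C lay within the VEC range. The AQA arrays read 6.37, 6.35 and 6.47, the DQD arrays 6.52, 6.41 and 6.53, and the F191G arrays 6.42, 6.39 and 6.24. The mean was lowest in WT (6.21 ± 0.18, SD), then F191G (6.35 ± 0.10), AQA (6.4 ± 0.07), VEC (6.48 ± 0.16) and DQD (6.48 ± 0.06). No neighbouring groups in this order differed beyond their spread (limma adjusted p from 0.414 to 0.999), and neighbours overlapped throughout. The WT mean lay below the lowest array median (6.306). Against VEC, Hoxa9 in WT read -0.28 (SE 0.101, 95% interval -0.49 to -0.057, limma adjusted p = 0.0911), which did not pass the test over all genes.

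The other forms lay closer to VEC for Hoxa9. The difference was -0.089 in AQA (95% interval -0.31 to 0.13), 0.00018 in DQD (-0.22 to 0.22) and -0.13 in F191G (-0.36 to 0.089), with limma adjusted p = 0.7, 0.999 and 0.657. These intervals are not adjusted for the number of genes. Between forms, Hoxa9 was 0.28 higher in DQD than in WT (95% interval 0.052 to 0.50, adjusted p = 0.0662) with no overlap of arrays. Such a separation between DQD and WT was common, at 48.2% of all genes. In F191G, Hoxa9 was 0.14 higher than in WT (-0.083 to 0.36, adjusted p = 0.414). The DQD difference passed the test with median centring (0.39, adjusted p = 0.025), quantile normalization again (0.37, 0.0429), without the batch term (0.0422) or without WT replicate C (0.39, 0.0317). Dropping the batch term, which was close to 0, left the difference itself unchanged, so that lower p adds no evidence. Without WT replicate A the DQD difference was 0.18 (adjusted p = 0.217), the F191G difference 0.047 (adjusted p = 0.851) and that of AQA from WT 0.082, against 0.19 with it. The difference of WT from VEC moved with single arrays too: on dropping WT replicate A it was -0.17 (adjusted p = 0.359), and on dropping VEC replicate A -0.18 (adjusted p = 0.294). Without WT replicate C it was -0.37 and passed the test (adjusted p = 0.0359). Within batch A, Hoxa9 differed by -0.42 between WT and VEC (2 against 2 arrays) and within batch B by 0.019 (1 against 1).

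Among the TALE partners, Pbx3, which encodes a Pbx family member that pairs with Hoxa9 in leukaemia, was lowest in WT. The VEC arrays read 9.20, 8.86 and 9.15, the WT arrays 8.77, 8.88 and 8.74, and the AQA arrays 8.82, 8.91 and 8.91. The DQD arrays read 9.10, 9.07 and 9.11, and the F191G arrays 9.13, 9.07 and 9.04. All WT and AQA arrays thus lay below all DQD and F191G arrays, while VEC overlapped with each form through the low VEC replicate B. Over all genes, 27.3% did not overlap between DQD and AQA and 20.9% between F191G and AQA. The order of means was WT (8.80 ± 0.08, SD), AQA (8.88 ± 0.05), VEC (9.07 ± 0.18), F191G (9.08 ± 0.05) and DQD (9.09 ± 0.02). No neighbours in that order differed by the test over all genes, with adjusted p = 0.294 between AQA and VEC and 0.568 or more for the others.

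Pbx3 fell by 0.27 in WT against VEC (SE 0.082, 95% interval -0.45 to -0.093, limma adjusted p = 0.0477), a ratio of 0.829. It was the 1 member of 6 called in that comparison, where 12.8% of all genes were called (5.72% as lower in WT) and 31.6% did not overlap between the groups, so the count is near the background. The call lay close to the threshold. It ended on leaving out any of 13 single arrays, that is each array other than VEC replicate B and WT replicate B, with adjusted p from 0.0514 to 0.21. The difference was -0.20 on dropping VEC replicate A, -0.25 on dropping WT replicate A, and -0.38 (adjusted p = 0.0111) on dropping VEC replicate B, the low control array. A model that also held each array's Twist1 value gave -0.18 (adjusted p = 0.32). The difference was -0.20 within batch A (2 against 2 arrays) and -0.40 within batch B (1 against 1). Within batch A, WT replicate B (8.88) lay slightly above VEC replicate B (8.86), so the fall there came from the A replicates (8.77 against 9.20).

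Pbx3 rose by 0.30 in DQD against WT (SE 0.084, 95% interval 0.12 to 0.48, limma adjusted p = 0.026), a ratio of 1.23, with no overlap between the groups. In that comparison 24.5% of all genes were called (11.8% as higher in DQD) and 48.2% did not overlap between the groups. Array medians lay 0.107 lower in DQD than in WT, and with each array centred on its median the Pbx3 difference was 0.41 (adjusted p = 0.00981). That centring also called Hoxa9 (0.39, adjusted p = 0.025) and Meis2 (0.28, adjusted p = 0.043), and it moved the split over all genes from 2272 higher and 2463 lower to 3885 higher and 926 lower. The Pbx3 call ended without WT replicate A (0.28, adjusted p = 0.0669), WT replicate C (0.26, 0.0935), DQD replicate A (0.29, 0.119) or DQD replicate C (0.29, 0.0536). Quantile normalization again gave 0.22 (adjusted p = 0.0748).

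In F191G, the Twist box mutant, Pbx3 stood at the VEC level. Its difference from VEC was 0.010 (95% interval -0.17 to 0.19, limma adjusted p = 0.98), and for DQD it was 0.027 (-0.15 to 0.21, adjusted p = 0.871). Against WT, Pbx3 in F191G read 0.28 higher (SE 0.084, 95% interval 0.099 to 0.46) with no overlap of arrays, but the adjusted p of 0.0575 missed the threshold. In that comparison 7.13% of all genes were called and 34.4% did not overlap between the groups. Median centring (0.35, adjusted p = 0.0414), dropping the batch term (0.0311) or the dimmest genes (0.0439), leaving out VEC replicate B (0.29, 0.0359) and leaving out WT replicate B (0.32, 0.0367) each brought it past the threshold. Other settings moved it the other way: it was 0.27 without WT replicate A (adjusted p = 0.143), 0.24 without WT replicate C (0.153), 0.24 without F191G replicate A (0.311), and 0.23 with quantile normalization again (0.0921). AQA lay between WT and VEC: -0.19 against VEC (95% interval -0.36 to -0.0087, adjusted p = 0.294) and 0.084 against WT (-0.093 to 0.26, adjusted p = 0.568).

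**Figure D2:**
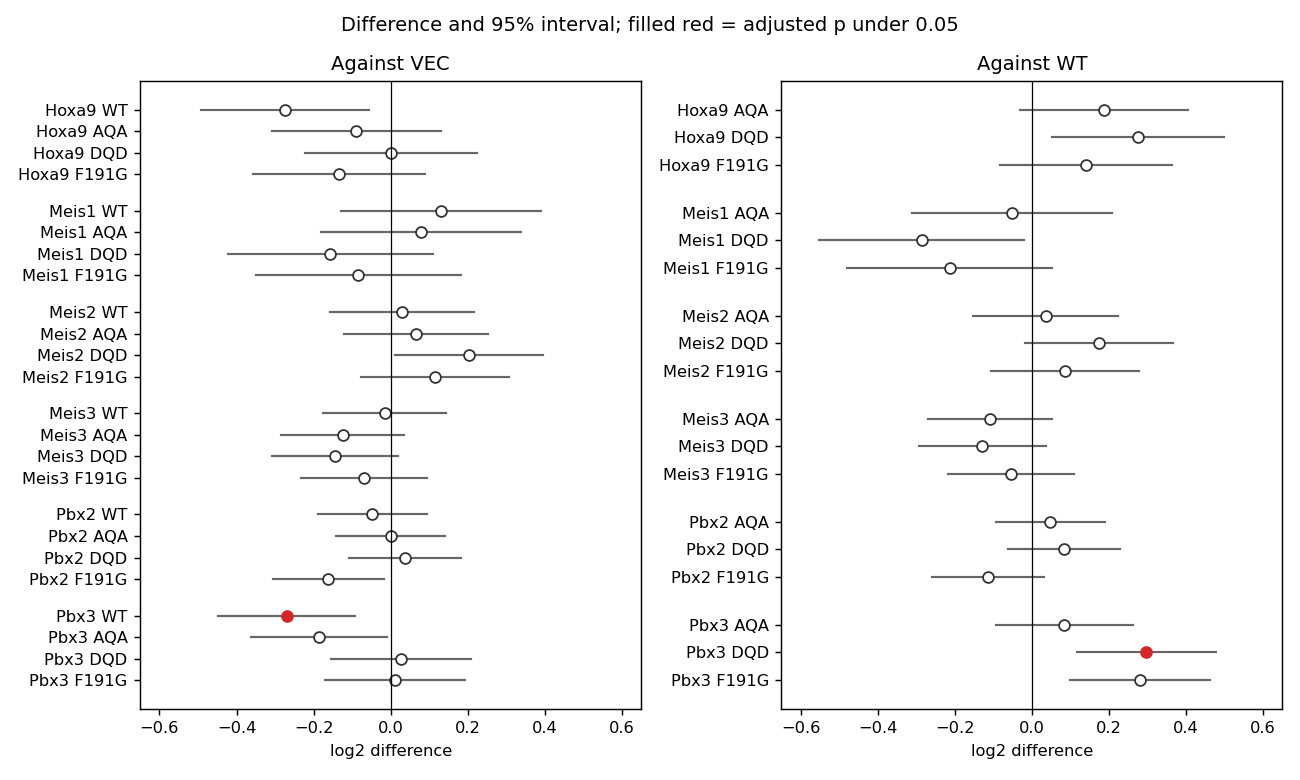
Log2 difference of each gene in each Twist1 form against VEC (left) and in the other forms against WT (right), with 95% intervals that are not adjusted for the number of genes; filled red points passed the test over all genes. The 2 filled points are Pbx3 in WT against VEC (-0.27) and in DQD against WT (0.30).

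Pbx2, the other Pbx gene, showed its lowest values in F191G and not in WT. The F191G arrays read 8.45, 8.56 and 8.48, below the VEC arrays at 8.58, 8.69 and 8.71, and the DQD arrays at 8.70, 8.74 and 8.64. The WT arrays (8.69, 8.63 and 8.50) overlapped with both, and the AQA arrays read 8.68, 8.62 and 8.67. The F191G difference from VEC was -0.16 (95% interval -0.31 to -0.017, limma adjusted p = 0.379) and that from DQD -0.198 (adjusted p = 0.522), so neither passed the test. Between F191G and DQD 17.6% of all genes did not overlap. F191G against VEC had 0.0985% of all genes called by limma and 21.1% not overlapping between the groups, so separation of the arrays was common there without a call. Pbx2 read -0.091 in WT against VEC and 0.091 in AQA against WT without WT replicate A, beside -0.048 and 0.047 with it. In WT, AQA and DQD, Pbx2 differed from VEC by -0.048, -0.00044 and 0.036, with 95% intervals between -0.19 and 0.18.

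Meis1, the Meis gene that acts with Hoxa9 in blood progenitors, ran opposite to Pbx3 in the order of its group means. WT was highest (8.85 ± 0.15, SD), followed by AQA (8.79 ± 0.04), VEC (8.72 ± 0.22), F191G (8.63 ± 0.15) and DQD (8.56 ± 0.16). The VEC arrays read 8.96, 8.67 and 8.52 and the WT arrays 9.02, 8.74 and 8.79, with the highest array again WT replicate A. The 3 DQD arrays were 8.46, 8.74 and 8.48, and DQD replicate B overlapped with the WT range. The difference between DQD and WT was -0.29 (95% interval -0.55 to -0.02, limma adjusted p = 0.1), and without WT replicate A -0.21 (adjusted p = 0.281). Against VEC no form passed, with differences of 0.13 (WT), 0.078 (AQA), -0.16 (DQD) and -0.084 (F191G, adjusted p from 0.457 to 0.846). Without WT replicate A the WT difference was 0.040 (adjusted p = 0.906), and that of F191G from WT was -0.13, against -0.21 with it. Its SE of 0.12 in these comparisons was the largest of the 6 genes.

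Meis2, a broadly expressed Meis gene, was highest in DQD. The DQD arrays read 9.16, 9.23 and 9.14, against 9.05, 9.05 and 8.91 in WT and 9.19, 8.81 and 8.92 in VEC. DQD and WT did not overlap, as for 48.2% of all genes, while VEC replicate A lay within the DQD range. The difference of DQD was 0.20 from VEC (95% interval 0.011 to 0.40, limma adjusted p = 0.187) and 0.17 from WT (-0.019 to 0.37, adjusted p = 0.16). AQA (9.04 ± 0.06, SD) and F191G (9.09 ± 0.06) lay between WT (9.0 ± 0.08) and DQD (9.18 ± 0.05), and no neighbours in that order were called.

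Meis3, the least studied Meis gene, varied least among group means. VEC was highest at 6.16 ± 0.05 (SD), followed by WT (6.15 ± 0.06), F191G (6.09 ± 0.10), AQA (6.04 ± 0.05) and DQD (6.02 ± 0.12). All these means lay below the lowest array median (6.306), so the small range is that of a dim probe set. The 3 AQA arrays, at 6.02, 6.09 and 6.0, lay below the VEC arrays at 6.10, 6.19 and 6.20 and also below the WT arrays at 6.21, 6.14 and 6.10. The difference was -0.12 for AQA (95% interval -0.28 to 0.035, limma adjusted p = 0.436) and -0.14 for DQD (-0.31 to 0.02, adjusted p = 0.262). AQA against VEC had 0.881% of all genes called and 25.8% not overlapping, AQA against WT 30% not overlapping, and DQD against VEC 0.814% and 34.8%.

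Across all 5 groups, no member passed limma's F-test for any difference, where 10.1% of all genes did. Pbx3 came nearest (adjusted p = 0.0646), followed by Pbx2 (0.171) and Hoxa9 (0.192), and Meis1, Meis2 and Meis3 had adjusted p = 0.324, 0.364 and 0.391. The range between the lowest and highest group mean was 0.30 for Pbx3, 0.29 for Meis1, 0.28 for Hoxa9, 0.20 for Meis2 and Pbx2, and 0.14 for Meis3. In AQA, DQD and F191G against VEC, limma called 0 of 6 members each, with 1 member each at an unadjusted p under 0.05. Over all genes, limma called 0.881%, 0.814% and 0.0985% there, and 3030, 4628 and 2263 of 19297 had an unadjusted p under 0.05. The member counts are near this background. In AQA against WT limma called 0 members, with 0 at an unadjusted p under 0.05. Over all genes, 0.726% were called there and 4822 of 19297 had an unadjusted p under 0.05. The median difference of the 6 members in WT against VEC was -0.032, beside -0.0093 over all genes, and in DQD against WT 0.13 beside -0.067. The 3 mutant forms compared among themselves gave 0 members called by limma (1 or 2 at an unadjusted p under 0.05 in each), beside 0.0259% of all genes called in DQD against AQA, 0.0104% in F191G against AQA and 0.00518% in F191G against DQD. In the same order, 2811, 2143 and 1746 of 19297 genes had an unadjusted p under 0.05.

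**Figure D3:**
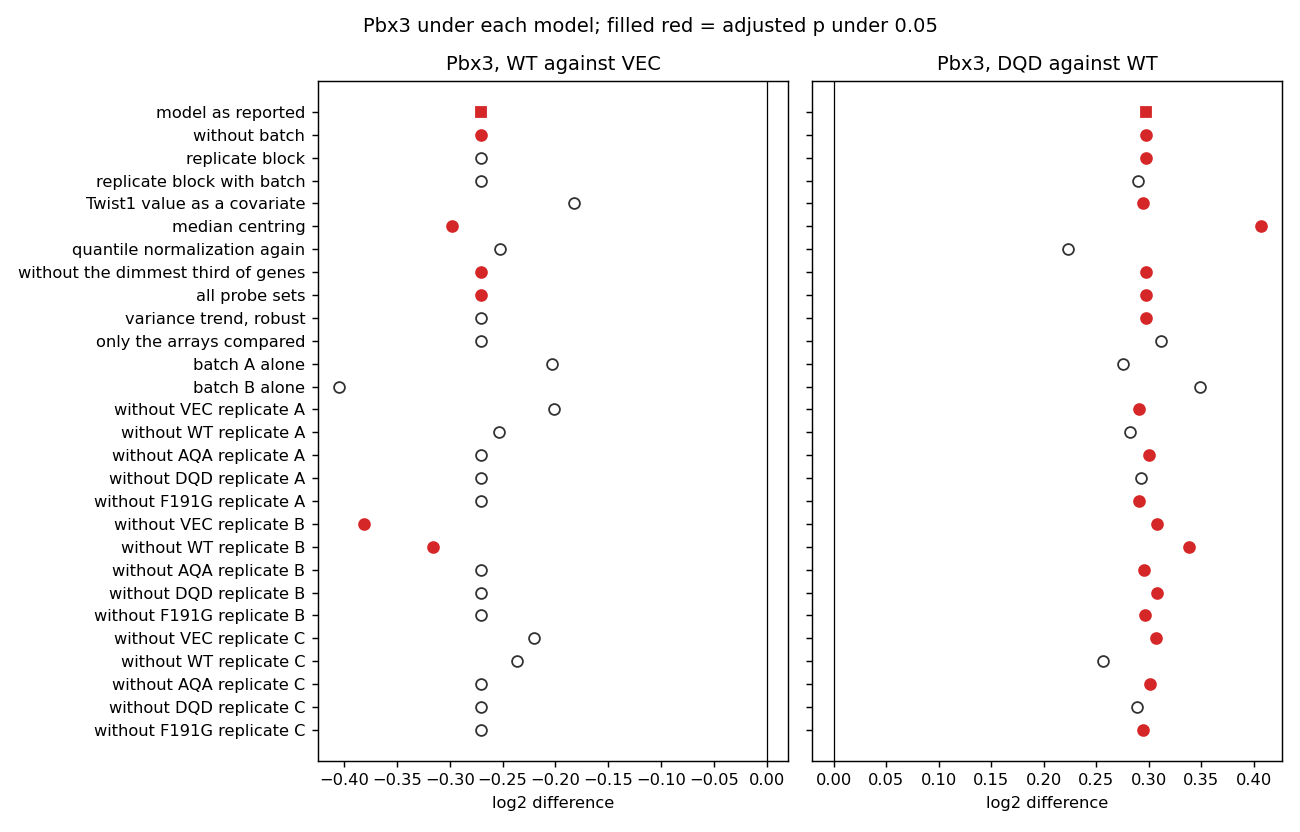
Log2 difference of Pbx3 in WT against VEC (left) and in DQD against WT (right) under the reported model (square) and each alternative model (circles), with filled red where the adjusted p was under 0.05. All points keep their side of 0, with the left panel from -0.40 to -0.18 and the right from 0.22 to 0.41, while the call itself came and went.

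The genes were also compared with each other over the 15 arrays, as a description, since arrays of a group are alike and share their batch adjustment. Hoxa9 and Pbx3 had a Pearson r of 0.578 (Spearman 0.529), 0.451 without WT replicate A, and 0.311 after group and batch means were taken out. Meis2 and Pbx3 had 0.524, and 0.626 after group and batch means were taken out, so those genes also varied together among arrays of a group. Hoxa9 and Pbx2 had -0.0198 over all arrays and -0.69 within groups, and Hoxa9 and Meis1 -0.327 and -0.0626. Of the genes whose pattern was most like that of Hoxa9, the interleukin 17 receptor gene Il17ra came first (r = 0.929 over 15 arrays), followed by Atp5a1, a subunit of the mitochondrial ATP synthase (0.912), the microtubule nucleation gene Haus8 (0.899), and Spice1 and Myo7a (0.895 each). Without VEC replicate A and WT replicate A, the arrays farthest from the Hoxa9 median, these were 0.77, 0.744, 0.757, 0.775 and 0.592. The most opposed were the lysosomal enzyme gene Idua (-0.898), Plekhg5 (-0.894) and the chondroitin synthase gene Chsy1 (-0.883). Nearest to Pbx3 were Sra1 (0.951) and the arginine methyltransferase gene Prmt3 (0.948), to Meis1 Cldn3 (0.939) and Txnip (0.937), to Meis2 Ube2a (0.921) and Xiap (0.913), to Meis3 Rasal3 (0.94) and Col5a3 (0.937), and to Pbx2 Lepr (0.894) and Akirin2 (0.884).

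The other genes of the pathway were taken from 5 lists. Of 12 measured TALE factors outside the set, limma called 1 lower and 0 higher in WT against VEC, and 4 had an unadjusted p under 0.05. Over all genes, 12.8% were called there, 31.6% did not overlap between the groups, and 5329 of 19297 had an unadjusted p under 0.05. The called gene was Pknox1, which encodes a close relative of the Meis proteins that also pairs with Pbx. Pknox1 read 7.09 to 7.25 in VEC and 6.69 to 6.94 in WT without overlap, and fell by 0.38 (SE 0.083, adjusted p = 0.0152), or -0.31 without WT replicate A, where it missed the threshold (adjusted p = 0.0607), as it did without VEC replicate C. The TALE repressor gene Tgif1 read 0.21 higher in WT (adjusted p = 0.0605) and the Mohawk homeobox gene Mkx read -0.297 (adjusted p = 0.0813). In DQD against WT, Pknox1 (0.37) and Mkx (0.395) rose and Irx3 fell by 0.55 (adjusted p = 0.0151, 0.0238 and 0.0167). There 24.5% of all genes were called, so the count for this list is near the background, and limma called 0 of it without DQD replicate A. Irx3 also fell in F191G against WT, where 7.13% of all genes were called, by 0.48 (adjusted p = 0.0484). Median centring ended that call, and it held in 2 of the 15 fits without 1 array. Without WT replicate A the difference was -0.34 (adjusted p = 0.118). Irx3 and the genes named below only for DQD or F191G against WT were chosen after their values were seen.

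The other Hoxa cluster genes showed no called change. Limma called 0 of 10 in each of the 7 comparisons with VEC or WT. Each had at most 1 at an unadjusted p under 0.05. Over all genes, 12.8% were called in WT against VEC, 24.5% in DQD against WT and 7.13% in F191G against WT. In the others it was at most 0.881%, so 0 of 10 is near the background there. Of all 19297 genes, 2263 (F191G against VEC) to 7873 (DQD against WT) had an unadjusted p under 0.05. In WT against VEC, the 3 with the smallest p were the cluster's neighbour Evx1 (0.12, adjusted p = 0.406), Hoxa6 (-0.0996, adjusted p = 0.427) and Hoxa11 (-0.085, adjusted p = 0.584). Evx1 read 0.066 without WT replicate A. Hoxa2, Hoxa10, Hoxa11, Hoxa13 and Evx1 were dim. Their VEC means of 5.28, 5.31, 4.69, 5.38 and 5.69 lay below the lowest array median (6.306).

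Of 23 measured regulators of Hoxa genes, mostly chromatin proteins, 4 rose and 2 fell in WT against VEC, where 12.8% of all genes were called. Kmt2a, the MLL methyltransferase gene that keeps Hoxa genes active, rose by 0.30 (SE 0.063, adjusted p = 0.0128), with WT arrays at 9.60 to 9.76 and VEC arrays at 9.33 to 9.39. The histone demethylase genes Kdm6b and Kdm6a, which remove a repressive mark, rose by 0.64 (adjusted p = 0.0213) and 0.45 (0.0265), and Aff1, which encodes a transcription elongation factor fused to MLL in leukaemia, by 0.49 (0.048). Eed, a core subunit of the repressive Polycomb complex PRC2, fell by 0.61 (SE 0.146, adjusted p = 0.0201), and Psip1, which tethers MLL to chromatin, by 0.47 (0.0314). This count rested on single arrays: without WT replicate A 1 of the 23, Eed, was called (-0.41, adjusted p = 0.0498). There Kmt2a read 0.25 (adjusted p = 0.052), Kdm6b 0.42 (0.0576), Kdm6a 0.29 (0.0893), Aff1 0.31 (0.191) and Psip1 -0.36 (0.129). In the fit without VEC replicate C limma called 0. Without VEC replicate A 2 rose and 1 fell, and without WT replicate C 4 rose and 6 fell.

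In DQD against WT, 5 of these regulators rose and 2 fell, where 24.5% of all genes were called. The PRC2 genes Eed, Ezh2 and Suz12 rose by 0.69, 0.66 and 0.47 (adjusted p = 0.0132, 0.0329 and 0.0153), Psip1 by 0.59 and the MLL complex gene Rbbp5 by 0.29, while Kdm6b fell by 0.53 and Cdx2 by 0.23. Cdx2 was dim, with means of 5.69 in WT and 5.46 in DQD, below the lowest array median (6.306). The WT arrays of Ezh2 ran from 9.64 to 10.53, and without WT replicate A its difference was 0.39 (adjusted p = 0.0535). Without that array 3 rose (Eed, Suz12 and Psip1) and 0 fell, with Rbbp5 at 0.19, Kdm6b at -0.34 and Cdx2 at -0.21 no longer called, without DQD replicate A limma called 0, and without DQD replicate C 4 rose and 0 fell. With median centring 10 rose and 0 fell, so the falls depended on the scaling. In F191G against WT 2 rose (Eed and Psip1) and 2 fell (Kmt2a and Ring1), where 7.13% of all genes were called. That count was 0 by limma without WT replicate A or any 1 F191G array, among others, while with median centring 4 rose and 0 fell.

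Of 19 genes known downstream of Hoxa9 or Meis1, mostly from work in blood cells, 3 rose and 0 fell in WT against VEC, while the median of the list was -0.029 beside -0.0093 over all genes. With 12.8% of all genes called, this count is near the background. Ccnd1 read -0.65 in WT against VEC and narrowly missed the threshold (adjusted p = 0.056), or -0.33 without WT replicate A (0.175). The receptor gene Igf1r rose by 0.56 (SE 0.117, adjusted p = 0.0127), the transcription factor gene Sox4 by 0.63 (SE 0.151, adjusted p = 0.0205) and the survival gene Bcl2 by 0.41 (SE 0.102, adjusted p = 0.0228). Without WT replicate A Igf1r alone was called (0.40, adjusted p = 0.0305), with Sox4 at 0.43 (0.0607) and Bcl2 at 0.35 (0.0903), and without VEC replicate C limma called 0. Sox4 read 8.18 to 8.78 in WT, 7.65 to 7.88 in VEC, 7.40 to 7.73 in DQD and 7.39 to 7.78 in F191G. Its difference from WT was -0.86 in DQD (adjusted p = 0.0094) and -0.798 in F191G (adjusted p = 0.0272), and both calls held without WT replicate A (-0.69 and -0.62), and each ended in 1 of the 15 fits without 1 array. The kinase gene Pim1 fell in AQA against VEC, by 0.77 (SE 0.154, adjusted p = 0.0398). It was the 1 gene of this list called there, beside 0.881% of all genes, and was called in 6 of the 15 fits without 1 array. In DQD against WT, Ccnd1 and Cdk6 also rose and Igf1r and Cd34 fell, which made 2 higher and 3 lower. With 24.5% of all genes called there, this count too is near the background. Cd34 was dim, with means of 5.10 in WT and 4.79 in DQD, below the lowest array median (6.306). With median centring 4 were higher and 1 lower. Without WT replicate A 0 were higher and 2 lower (Sox4 and Cd34), and without DQD replicate A limma called 0.

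Of 14 measured partners and modifiers of Hox, Meis or Pbx proteins, limma called 1 higher (Ep300) and 1 lower (Cebpa) in WT against VEC, beside 12.8% of all genes, and both calls held without WT replicate A. Ep300, a histone acetyltransferase that Hox complexes recruit, rose by 0.29 (SE 0.055, adjusted p = 0.0102), with WT arrays at 10.30 to 10.43 and VEC arrays at 10.04 to 10.10. The other forms also read higher than VEC for Ep300 without a call: AQA by 0.16 (adjusted p = 0.195), DQD by 0.22 (0.067) and F191G by 0.19 (0.224). Cebpa, a transcription factor found with Hoxa9 at enhancers in leukaemia, fell by 0.26 (SE 0.060, adjusted p = 0.0174), from 8.71 to 8.74 in VEC to 8.42 to 8.52 in WT. Cebpa was higher than in WT in both DQD (0.25, adjusted p = 0.0193) and F191G (0.38, adjusted p = 0.018). In AQA it was also 0.25 higher than in WT, which missed the threshold (adjusted p = 0.0548). Without WT replicate A, Cebpa read -0.29 in WT against VEC, and 0.27 in DQD and 0.41 in F191G against WT, all still called. AQA against WT was then 0.28 (adjusted p = 0.15). Smad4 read 0.18 higher in WT (adjusted p = 0.0787). The Meis coactivator gene Crtc1 fell by 0.31 in AQA against VEC (SE 0.066, adjusted p = 0.0483), where 0.881% of all genes were called. That call held in 3 of the 15 fits without 1 array. Crtc1 was similarly low in F191G (-0.33, adjusted p = 0.0949) and DQD (-0.25, adjusted p = 0.0693) against VEC without a call, so the fall was not particular to AQA. In DQD against WT, Hdac1 also rose (0.33) and Cebpb (-0.32) and Pbxip1 (-0.34) fell, which made 2 higher and 2 lower beside 24.5% of all genes called, against 4 higher and 0 lower with median centring. These were 0.22, -0.24 and -0.22 without WT replicate A and no longer called (adjusted p = 0.0954, 0.117 and 0.0913). Without DQD replicate A limma called 0 there. Without VEC replicate C limma called 0 of this list in WT against VEC.

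**Figure D4:**
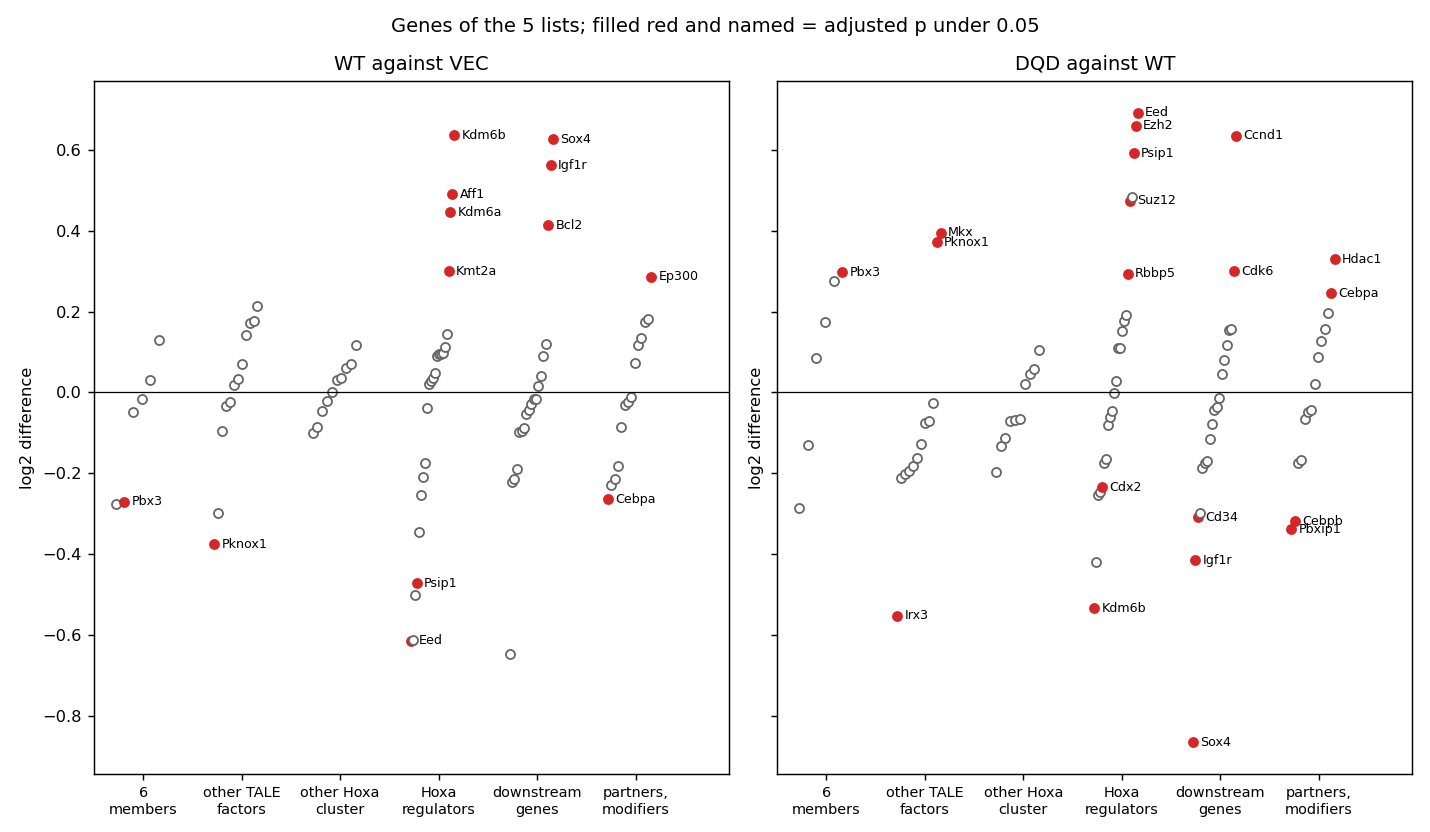
Log2 difference of the 6 members and of the measured genes of the 5 lists in WT against VEC (left) and DQD against WT (right), 1 point per gene; filled red points with a name passed the test over all genes. The other Hoxa cluster genes stay within 0.2 of 0 with none filled. Kdm6b (0.64), Sox4 (0.63) and Eed (-0.61) lie far out in the left panel, as do the unfilled Ccnd1 (-0.65) and Ezh2 (-0.61). Without WT replicate A these were 0.42, 0.43, -0.41, -0.33 and -0.31, in that order.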

How the data were processed

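RNA of 15 Myc-CaP samples was hybridised to single-colour arrays. The deposited log2 values of 23811 probe sets were made by the authors with RMA, and limma is named beside it, per the submitters' processing notes. Versions, genome build and the form of the Twist1 normalization named in the design text were not stated in what was used here. Of the probe sets, 20852 carried 1 symbol in the platform annotation, 1440 several and 1519 were not listed, which left 19297 genes. No detection calls were used and no gene was filtered. Models with group and batch (labelled A, 8 arrays, or B, 7 arrays) used all 15 arrays and limma 3.58.1 (R 4.3.3), with 9 residual and 3.93 prior degrees of freedom. The batch term was part of the planned design, and its fitted size was close to 0. Leaving it out therefore changed the estimate of spread and not the differences, so lower p-values without it add no evidence. Benjamini-Hochberg adjusted p under 0.05 was called. The number of arrays limits the precision.

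The members, lists and alternatives were chosen with earlier results of these data known. Genes named were the 6 members, those correlating most with them over the arrays (5 highest and 3 lowest for Hoxa9, 2 highest for the others), and per list the 3 with the smallest p in WT against VEC and up to 6 called against VEC. Predicted genes and clone names were skipped. List counts without single arrays and with median centring were added after seeing the data. The model was tested on simulated data. Figures were drawn with matplotlib 3.10.9.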

Additional observations from a re-analysis of the deposited data

How the results depend on the processing

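The member counts and the 42 member differences from VEC or WT were recomputed under 27 alternatives, 12 other models and 15 that leave out 1 array. The gene lists were refitted only without single arrays and with median centring, and the correlations and the single differences among mutant forms under none of the models. The number of members called stayed at 0 under each of them for AQA, DQD and F191G against VEC, AQA against WT and the mutant forms among themselves. For WT against VEC it was 1, and 0 with the replicate block (with or without batch), the Twist1 covariate, quantile normalization again, the variance trend, the arrays compared alone and each batch alone, and 0 to 1 on leaving out single arrays. For DQD against WT it was 1, with 3 under median centring, 2 without batch, 0 with the arrays compared alone and in each batch, and 0 to 1 on leaving out arrays. The 1 gene was not always Pbx3: it was Hoxa9 with quantile normalization and without WT replicate C, and Meis1 with the replicate block and batch. For F191G against WT it was 0, with 1 under median centring, without batch and without the dimmest genes, and 0 to 1 on leaving out arrays. The F-test over 5 groups, which could not be run on the arrays compared alone, called 0 members, and 1 under median centring and without batch, and 0 to 1 on leaving out arrays. Of 30 pairs of arrays with the same replicate letter in different groups, 6 had a correlation of deviations above 0.1. All A replicates were labelled batch A and all C replicates batch B, and the deposited values held no batch difference. An effect shared by a letter could thus have been removed before deposit, so these correlations cannot decide whether the letters pair the arrays. With the replicate block and batch, Meis1 in DQD against WT passed (-0.39, adjusted p = 0.049) and Pbx3 did not (0.29, 0.0667). The cause of these changes was not tested.

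Reversed values, none of them past the threshold, were the following. In batch A alone they were Hoxa9 in DQD against VEC (-0.037), Meis1 in AQA against VEC (-0.011), Meis2 in AQA and F191G against WT (-0.044 and -0.022), Meis3 in WT against VEC (0.027), Pbx2 in AQA and WT against VEC (0.016 and 0.030) and Pbx2 in AQA against WT (-0.014). In batch B alone they were Hoxa9 in AQA and WT against VEC (0.12 and 0.019) and in F191G against WT (-0.053), Meis1 in DQD and F191G against VEC (0.087 and 0.19), Meis2 in WT against VEC (-0.0095), Meis3 in F191G against WT (0.00018), Pbx2 in DQD against VEC (-0.017) and in F191G against WT (0.017), and Pbx3 in DQD and F191G against VEC (-0.056 and -0.095). Median centring turned Meis3 in F191G against WT (0.012) and Pbx2 in AQA against VEC (0.020). Quantile normalization turned Meis3 in F191G against WT (0.011) and, against VEC, Pbx2 in DQD (-0.026) and Pbx3 in DQD (-0.029) and F191G (-0.020). The replicate block with batch turned Hoxa9 in DQD against VEC (-0.0017) and Meis3 in F191G against WT (0.0048), and the Twist1 covariate the former (-0.044).

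Leaving out arrays gave these ranges where a sign or call changed. For Hoxa9 against VEC they were -0.37 to -0.17 in WT, -0.17 to 0.0069 in AQA and -0.10 to 0.086 in DQD, and against WT 0.18 to 0.39 in DQD. For Meis1 they were -0.043 to 0.20 in AQA and -0.23 to 0.043 in F191G against VEC, and -0.11 to 0.038 in AQA against WT. For Meis2 they were -0.019 to 0.18 in AQA and -0.054 to 0.14 in WT against VEC, and -0.022 to 0.060 in AQA against WT. Meis3 in WT against VEC ran from -0.048 to 0.016. Pbx2 ran from -0.042 to 0.030 in AQA, -0.00099 to 0.073 in DQD and -0.091 to 0.019 in WT against VEC, and from -0.019 to 0.091 in AQA against WT. Pbx3 against VEC ran from -0.073 to 0.089 in DQD, -0.089 to 0.072 in F191G and -0.38 to -0.20 in WT (called in 2 of 15 fits), and against WT from 0.26 to 0.34 in DQD (11 of 15) and 0.24 to 0.32 in F191G (2 of 15). Moves by over 1.5 times without a changed sign or call included Meis1 in WT against VEC (0.0087 to 0.26) and Hoxa9 in F191G against WT (0.047 to 0.26).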
